A study of Hydra vulgaris with 22 samples.

Results

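Epidermal epithelial stem cells of the freshwater polyp Hydra vulgaris, strain AEP, were compared after 10 and after 3 days without food. The animals carried an actin::eGFP transgene, a fluorescent reporter behind an actin promoter, in the line whose label gives epidermal epithelial stem cells (eESC) as the cells with eGFP. The middle of the body column, without head and foot regions, was taken from animals that received no other treatment, and cells with high eGFP were collected by fluorescence-activated cell sorting. The comparison used 7 of the 22 libraries of the study, namely 4 at 10 days (eESC_10d, replicates A to D) and 3 at 3 days (eESC_3d, replicates A to C). They were chosen by the cell type, the gate and the days in their titles, and the unsorted body column library of the same line stayed out. All values are sums over the contigs of a stem, which is a transcript identifier without its isoform number. Polyadenylated RNA was sequenced with directional TruSeq libraries. For context, 13 other sorted libraries entered the same fit. These were gastrodermal epithelial stem cells (gESC) at 3 and 10 days (n = 3 each) from an actin::eGFP line, and interstitial stem cells of a cnnos1::eGFP line from a high gate (ISC_high, n = 4, at 2, 3, 3 and 5 days) and a medium gate (ISC_medium, n = 3, at 5, 3 and 3 days).

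The epidermis of Hydra is a single layer of epithelial cells that also contract, secrete the outer coat of the animal and phagocytose. In the body column these cells divide continuously and act as unipotent stem cells that renew their own layer. Neurons and stinging cells, which derive from interstitial stem cells, lie between and within them. A starved Hydra stops budding and shrinks but survives for weeks, and phagocytosis of dying cells and autophagy in epithelial cells are known parts of that response.

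The deposited files give no gene names. None of the 44306 stems (0) and none of the 61501 contigs matched the reference table of 28925 genes, so the stems below carry their identifiers only. No gene function can be assigned to them, and the reporter, actin and the known cell type markers could not be looked up by name.

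The 7 eESC libraries fell into separate ranges of depth by day. The 3-day libraries held 17159718 to 18473512 counts and the 10-day libraries 25389419 to 30472270. Over all sorted libraries the totals left a gap at 22761498.5 counts. The 8 shallower libraries were eESC_3d, ISC_medium and gESC_3d A and B, and the deeper ones were eESC_10d, gESC_10d, ISC_high and gESC_3d C. Day and depth class therefore cannot be told apart from the eESC libraries alone. Between 25082 and 27236 stems had a count at 3 days and 29549 to 34755 at 10 days. With every library thinned to the smallest sorted total of 17159718 counts, the ranges were 25082 to 26842 and 26950 to 31828, and they still did not overlap (two-sided exact permutation p = 0.0571, the smallest that 4 against 3 libraries can give). A count of 3 in a library, used as the floor, corresponded to 0.162 to 0.175 counts per 1000000 counts of the library at 3 days and 0.0985 to 0.118 at 10 days. Levels below are given as CPM, counts per 1000000 of the scaled library size, and are compared between libraries and not between stems, since no lengths were used.

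Replicate C of eESC_10d stood apart from the rest. Spearman correlations across the 18288 stems tested, which are not independent replicates, were 0.974 to 0.982 within eESC_3d and 0.980 to 0.988 among eESC_10d A, B and D. They were 0.956 to 0.965 between C and these 3. Against the 6 gESC libraries, C reached 0.784 to 0.804 and the other 6 eESC libraries 0.693 to 0.736. Stems of a gastrodermal class, defined below, took 2.56% of its counts (95% Wilson interval 2.55 to 2.56, counting error only) and 0.668 to 0.792% in the other eESC libraries. Values without C are given below where they differ.

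Stems of the gastrodermal, interstitial and epidermal classes served in place of named markers to check the label of the cells. A stem entered a class when it was called by edgeR and at least 4-fold higher in that population than in each of the others. The means of eESC and gESC over both days had equal weight and ISC_high stood for the interstitial cells, so that the classes rest on a contrast other than 10 against 3 days. The 2466 stems of the epidermal class took 14.4 to 18.5% of counts in the 7 eESC libraries, 0.439 to 0.741% in the gESC libraries and 0.314 ± 0.0635% in ISC_high (SD, n = 4). They took 6.16 ± 0.798% in ISC_medium (n = 3), which was not used to define the class. Because the eESC libraries were used to define the class, this describes the label and does not test it.

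Expression changed in both directions between 3 and 10 days. In edgeR's quasi-likelihood test, 2246 of 18288 stems (12.3%) were called at a Benjamini-Hochberg adjusted p under 0.05. Of these, 1193 (6.52% of those tested) were higher at 10 days and 1053 (5.76%) were lower. At least 2-fold changes made up 740 of the higher stems (62.0%) and 423 of the lower ones (40.2%), and at least 4-fold changes 273 and 145. The median log2 fold change was 1.25 among the higher stems (1.15 when the 3-count floor bounds the fold of stems with no more than that in a group) and -0.87 among the lower. Every 10-day library lay above every 3-day library in 1146 of the higher stems and below in 1046 of the lower ones. Over all stems tested, the same held for 3293 (18.0%) and 2709 (14.8%). Of the higher stems, 104 had at most 3 counts in each 3-day library, and 20 of the lower stems had at most 3 in each 10-day library.

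The balance of directions depended on the scaling between libraries. The share of calls that were higher at 10 days was 53.1% with TMM scaling, 38.1% with median-of-ratios factors, 71.8% with library size alone and 40.5% with DESeq2. The median log2 fold change of all stems was 0.16, 0.08, 0.34 and 0.07 under these settings, so a small change is relative to the scaling. The number of calls also rested on single libraries. It was 661 without eESC_3d A, 1406 without B and 1029 without C of that group, and 1460 without eESC_10d B and 1276 without D. Without eESC_10d C it was 1734, with 930 higher and 804 lower, and without both eESC_3d A and eESC_10d C it was 588. The set called in the comparison and in all 7 fits without 1 library held 494 stems (22.0% of the calls), 240 higher and 254 lower, of which 181 and 186 changed at least 2-fold. With a term for the depth class, which rests on gESC_3d C, 4 stems were called and 1 of them, c25499_g1, was among the 2246.

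**Figure D1:**
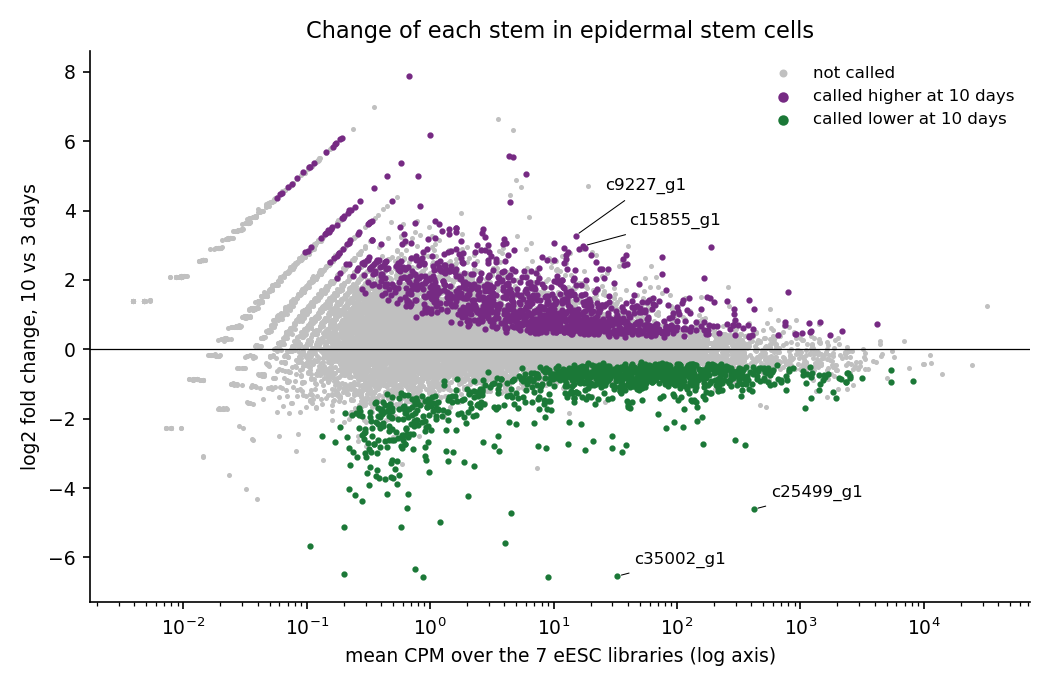
Each point is a stem, with its mean CPM over the 7 eESC libraries on a log axis and its log2 fold change between 10 and 3 days on the other axis. Purple points were called higher (1193) and green points lower (1053) at an adjusted p under 0.05, and the diagonal lines of points at the left are stems with few counts.

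Calls were distributed unevenly over the number of counts per stem, which depends on transcript length as well as on abundance. When stems were split into 6 equal parts by their mean CPM over the 7 libraries, the part with the most counts (above 38.8 CPM) had 470 lower calls (15.4%) and 175 higher calls (5.74%). In the parts from 0.986 to 4.04 CPM and from 4.04 to 13.1 CPM the reverse held, with 288 higher (9.45%) against 89 lower (2.92%) and 301 higher (9.88%) against 104 lower (3.41%). The part under 0.318 CPM had 64 higher and 32 lower calls among 3048 stems. The parts between these had nearly equal numbers, 139 higher and 137 lower from 0.319 to 0.984 CPM and 226 higher and 221 lower from 13.1 to 38.8 CPM. From the fewest to the most counts, the median log2 fold changes were 0.72, 0.33, 0.34, 0.20, 0.04 and -0.14, and the first depends on stems near the floor.

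Stem c25499_g1, of the epidermal class, fell and was the only stem called with and without the term for depth class. It had 998, 769 and 1030 CPM in eESC_3d A, B and C and 33.8, 25.8, 61.7 and 31.6 CPM in eESC_10d A to D. All 10-day libraries were far below all 3-day libraries, and C was the highest of the 10-day values. The mean fell from 932 ± 142 CPM (SD, n = 3) to 38.2 ± 16.0 CPM (n = 4), a log2 fold change of -4.61 (SE 0.333, edgeR adjusted p 6.35e-07). The call was kept in every fit without 1 library (-4.94 to -4.46) and with the term for depth class (-5.04, adjusted p 0.00126). In gESC, the level was 36.9 ± 6.94 CPM at 3 days and 51.8 ± 19.4 CPM at 10 days (n = 3 each). It was 11.2 ± 2.85 CPM in ISC_high (n = 4) and 10.1 ± 3.05 CPM in ISC_medium (n = 3). Most of the difference was in contig c25499_g1_i02, which went from 920 ± 140 to 33.5 ± 16.0 CPM. The other contig of the stem had 12.6 ± 2.40 and 4.72 ± 1.77 CPM.

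Stem c35002_g1 had the most negative log2 fold change among the stems of at least 10 CPM whose groups did not overlap. Its levels were 118, 36.8 and 72.5 CPM in the 3-day libraries and 1.13, 0.724, 0.805 and 0.604 CPM in the 10-day libraries. The log2 fold change was -6.54 (SE 0.992, adjusted p 0.000958), or 93.0-fold lower. In each other population it was also higher in the shallower libraries. It had 101 and 12.4 CPM in the shallower libraries gESC_3d A and B, but 3.14 CPM in the deeper gESC_3d C, and 0.403 ± 0.161 CPM in gESC_10d (n = 3). The shallower ISC_medium libraries had 36.7 ± 11.2 CPM (n = 3) and the deeper ISC_high libraries 0.790 ± 1.17 CPM (n = 4), and these groups differ in gate as well as in depth. With the depth class as a term the value was -2.36 and the call was lost (adjusted p 0.466).

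Stems c9227_g1 and c15855_g1, each with a single contig, had the highest log2 fold changes by the same rule. Stem c15855_g1, of the epidermal class, had 2.97, 4.68 and 2.91 CPM at 3 days and 40.8, 25.7, 12.0 and 33.1 CPM at 10 days. The groups did not overlap, and C was the lowest of the 10-day libraries. It rose from 3.52 ± 1.01 to 27.9 ± 12.2 CPM, with a log2 fold change of 2.98 (SE 0.566, adjusted p 0.0041). Stem c9227_g1 had 1.48, 5.09 and 0.896 CPM at 3 days and 35, 23.6, 11.1 and 28.5 CPM at 10 days, with the 10-day libraries in the same order as for c15855_g1. Its log2 fold change was 3.28 (SE 0.815, adjusted p 0.0154). That call was lost without eESC_3d A (adjusted p 0.0829) or C (0.0729) or without both eESC_3d A and eESC_10d C (0.0575), and the calls of both stems were lost with the depth class as a term (adjusted p 0.427 for c15855_g1 and 0.5 for c9227_g1). The log2 fold change was 2.26 for c15855_g1 and 2.85 for c9227_g1 with that term, and 3.03 and 2.88 for c9227_g1 without eESC_3d A and C.

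Both stems were higher in ISC_medium than in ISC_high, groups that differ in gate as well as in depth. In gESC, c15855_g1 had 1.22 ± 0.385 CPM at 3 days and 1.83 ± 0.714 CPM at 10 days, and c9227_g1 had 0.961 ± 0.498 and 1.66 ± 0.630 CPM (n = 3 each). In the deeper ISC_high they had 0.751 ± 0.801 and 1.98 ± 2.34 CPM (n = 4). The shallower ISC_medium had 25.2 ± 7.12 and 26.8 ± 5.61 CPM (n = 3). Epidermal-class stems as a whole took 6.16% of counts in ISC_medium and 0.314% in ISC_high, and their part in these levels was not tested.

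**Figure D2:**
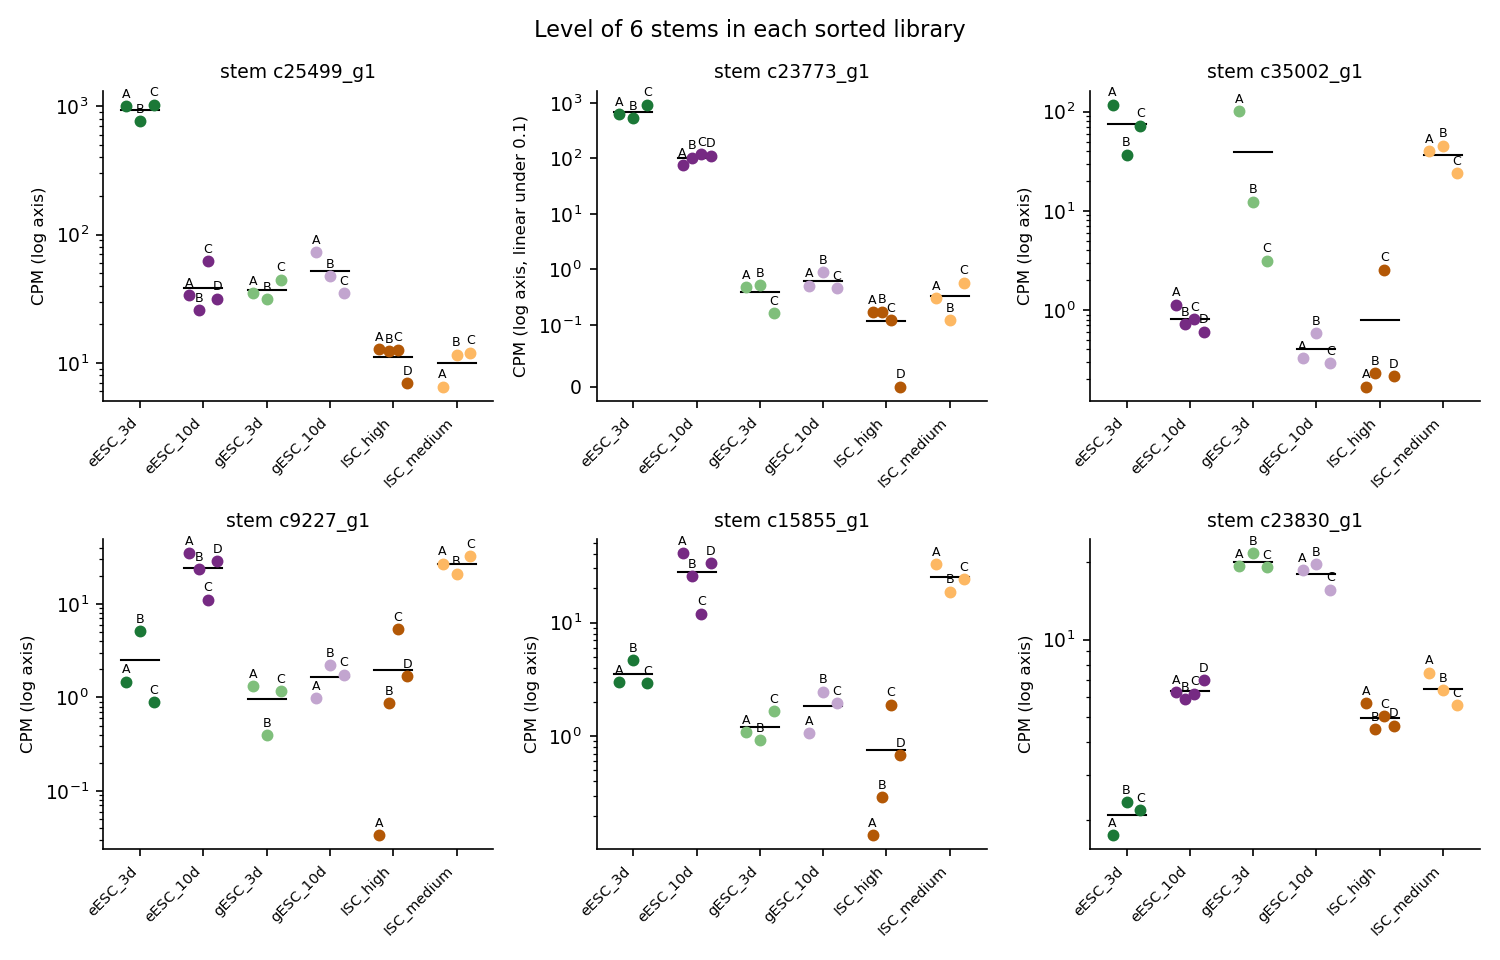
Each panel shows 1 stem, each point the CPM of 1 library on a log axis (linear under 0.1 for c23773_g1), letters the replicate and lines the group mean. Stem c25499_g1 is high in the 3 libraries of eESC_3d, c35002_g1 is high in the shallower libraries of every population, and c9227_g1 and c15855_g1 are high in eESC_10d and ISC_medium.

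Stems of the interstitial class took a larger share of counts in each 10-day library than in any 3-day library. The 668 stems of this class took 0.248, 0.312 and 0.237% of counts in eESC_3d A, B and C and 0.414, 0.452, 0.415 and 0.511% in eESC_10d A to D. The groups did not overlap, and C lay with the other 10-day libraries. The mean share went from 0.266 ± 0.0404% (SD, n = 3) to 0.448 ± 0.0457% (n = 4), 1.68 times as much (two-sided exact permutation p = 0.0571, the smallest possible here, or 0.114 adjusted over 4 classes). Of these stems, 99 (14.8%) were called higher and 1 (0.15%) lower, against 6.52 and 5.76% of all stems tested. Without eESC_10d C, 85 (12.7%) were higher and 1 was lower, against 5.16 and 4.46%. The median log2 fold change of the class was 0.80, or 0.46 when the floor bounds the fold, against 0.16 and 0.11 for all stems. In bulk samples more cells of a type and more RNA per cell cannot be told apart. The same class took 2.27 ± 0.139% of counts in ISC_high and 1.60 ± 0.0874% in ISC_medium. In gESC its share was 0.222 and 0.208% in the shallower 3-day libraries A and B, 0.258% in the deeper 3-day library C, and 0.200, 0.303 and 0.267% at 10 days. Which part the depth class has in the epidermal difference was not tested.

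Stems of the gastrodermal class differed between days through 1 library. Their share was 0.675, 0.706 and 0.792% at 3 days and 0.668, 0.750, 2.56 and 0.772% at 10 days, where only replicate C left the range of the others (exact permutation p = 0.571). Without C, the 10-day mean was 0.730 ± 0.0547% against 0.724 ± 0.0608% (n = 3 each). Of the 2018 stems of the class, 86 (4.26%) were called higher and 14 (0.694%) lower, against 6.52 and 5.76% of all stems. Among the 86, C was the highest 10-day library in 68 (79.1%), against 20.4% of all stems called higher and 28.1% of all stems tested. Without C, 42 (2.09%) were called higher and 54 (2.69%) lower, against 5.16 and 4.46% of all stems. The class had a median of 0.254 CPM in eESC, against 4.04 CPM for all stems. At most 3 counts in each 3-day library were found for 47.3% of its stems, against 10.3% of all, so all stems differ from the class in level.

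Stems of the epidermal class changed in both directions. Of 2466, 173 (7.02%) were called higher and 146 (5.92%) lower, near the shares of all stems, and the median log2 fold change was 0.13. Their share of counts was 17.8 ± 0.561% at 3 days and 16.5 ± 1.73% at 10 days, and the groups overlapped (exact permutation p = 0.229). Without C, the 10-day share was 17.2 ± 1.27% (n = 3), the difference was -0.653 instead of -1.35 percentage points, and 179 stems (7.44%) were called higher and 112 (4.65%) lower. Replicate C was the lowest 10-day library in 130 of the 173 higher stems (75.1%), against 42.5% of all stems called higher and 26.4% of all stems tested.

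As a stand-in for transcripts of body column cells that the sort removes, 270 stems were taken. Each was at least 4-fold higher in both unsorted libraries than in any sorted group, with at least 5 CPM there. Which cells their transcripts come from was not tested. The 270 stems took 0.201, 0.186 and 0.135% of counts at 3 days and 0.236, 0.234, 0.610 and 0.286% at 10 days. The groups did not overlap, with C the highest (exact permutation p = 0.0571, 0.114 adjusted). Without C, the 10-day mean was 0.252 ± 0.0296% (n = 3) against 0.174 ± 0.0348%. The unsorted libraries are single libraries without replicates, 1 of the actin::eGFP line and 1 of the cnnos1::eGFP line. Both came from animals starved for 10 days, so these stems were chosen on 10-day samples only. How far that choice raises their share at 10 days was not tested.

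**Figure D3:**
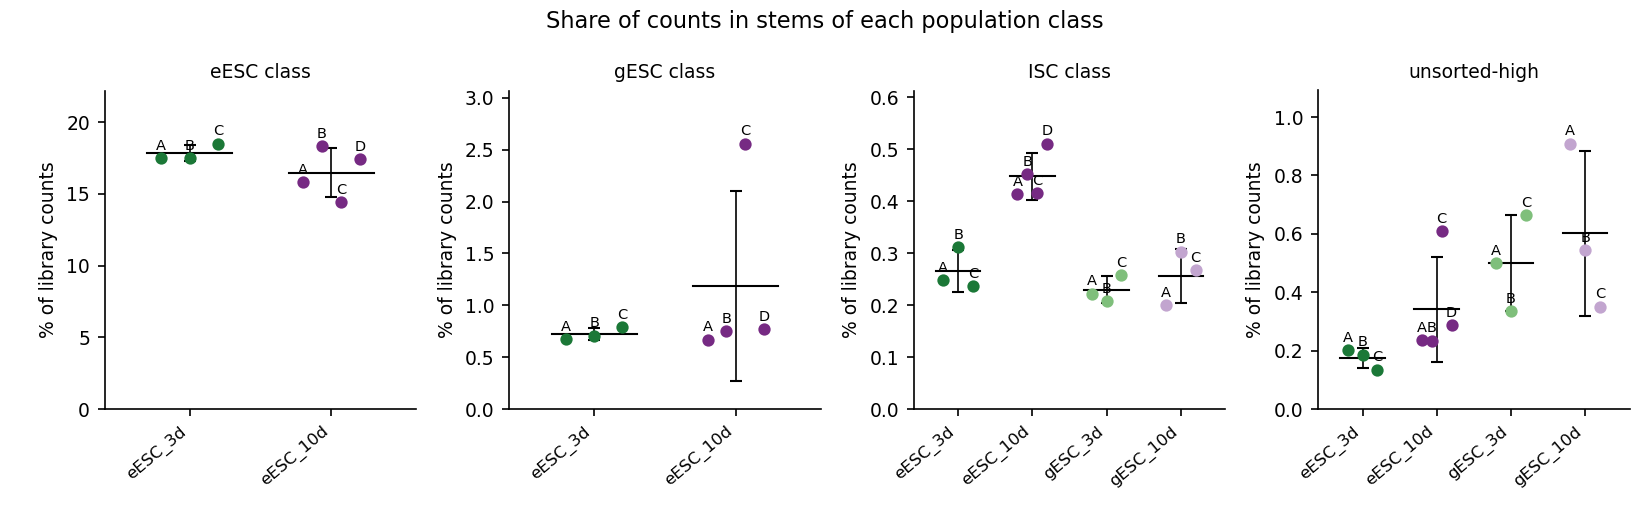
Each panel gives the percentage of a library's counts in 1 class of stems, with a point per library, its replicate letter, and the mean and SD of each group. The interstitial class lies between 0.414 and 0.511% in eESC_10d and between 0.237 and 0.312% in eESC_3d, and replicate C of eESC_10d lies above the others in the gastrodermal and unsorted-high stems.

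The gastrodermal cells gave a second 10-day against 3-day comparison that shares no library with the first. There, 12 of 18288 stems (0.0656%) were called, 1 higher (0.00547%) and 11 lower (0.0601%), with 2519 at an unadjusted p under 0.05. The stems called in the epidermis had not been chosen on these libraries. Of the 1193 higher in eESC, 956 (80.1%) had a positive fold change in gESC, with a median of 0.30 on the log2 scale. Of the 1053 lower in eESC, 86 (8.17%) had a positive fold change in gESC, with a median of -0.59 and 9 called. Over all stems tested, 53.5% had a positive fold change and the median was 0.04.

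Gastrodermal replicates at 3 days differ in depth class, which allowed the same stems to be followed at a fixed day. On mean log2 CPM with a pseudocount of 0.5, the stems lower in eESC had a median difference of -0.48 between the deeper gESC_3d C and the shallower A and B, all at 3 days, and 9.31% of them were above 0. The median of all stems was -0.03, with 43.5% above 0. Between gESC_10d and gESC_3d C, which are all deeper, the median of the lower stems was -0.14 with 26.8% above 0, and that of all stems 0.02 with 52.2% above 0. Between the deeper ISC_high and the shallower ISC_medium it was -0.26. The stems higher in eESC had medians of 0.12 between gESC_3d C and A and B, 0.11 between gESC_10d and gESC_3d C, and 0.19 between ISC_high and ISC_medium. In eESC the same scale gave 0.91 for the higher and -0.80 for the lower stems. The differences against gESC_3d C rest on a single library, and those between interstitial gates also differ in gate. The gESC calls themselves numbered at most 4 without any 1 of the gESC libraries other than gESC_3d C. Without gESC_3d C, when all 3-day gESC libraries are shallower, 1013 stems were called in gESC, 768 of them lower.

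**Figure D4:**
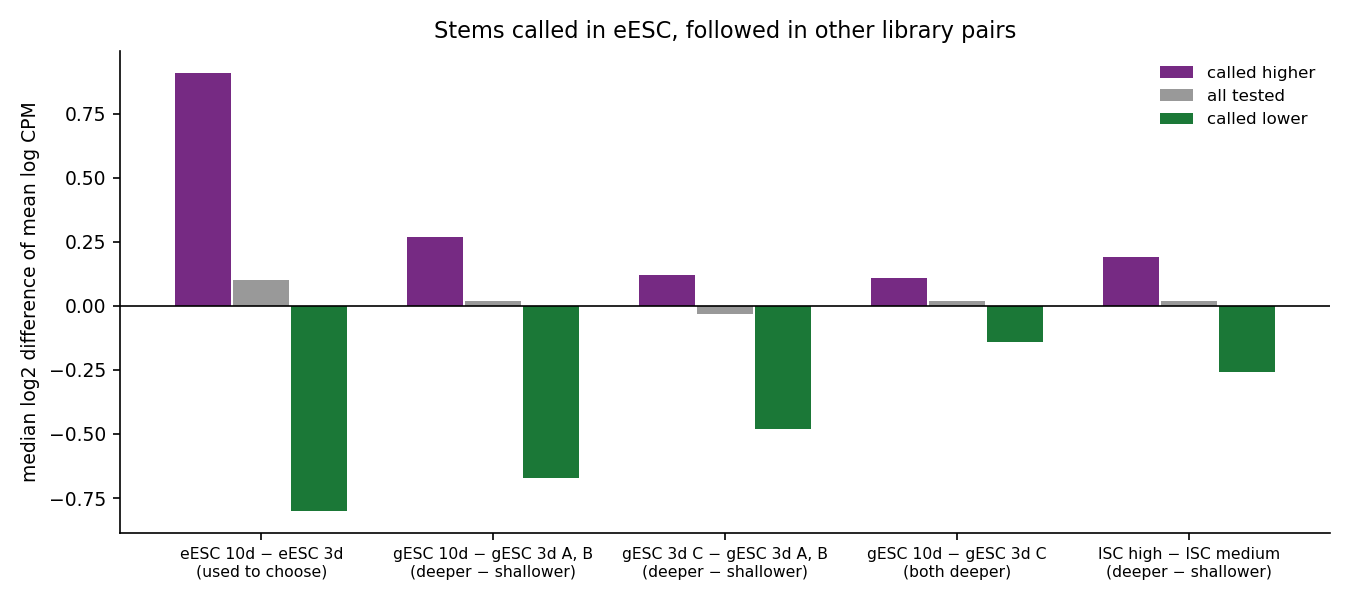
Bars give the median log2 difference between mean log CPM values of the libraries named under each group, for stems called higher (purple) or lower (green) in eESC and for all stems tested (grey). The stems were chosen on the first comparison only; the lower ones have -0.48 between gESC_3d C and gESC_3d A and B and -0.14 between gESC_10d and gESC_3d C.

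Whether the epidermal change differed from the gastrodermal one was tested directly as an interaction. The difference was called in 15 stems (0.082%), 12 (0.0656%) with a more positive change in eESC and 3 (0.0164%) with a more negative one, and 1409 had an unadjusted p under 0.05. Stem c25499_g1 was the most negative of those of at least 10 CPM over the epithelial libraries, with a difference of -5.10 (SE 0.464, adjusted p 2.91e-05). Stem c23773_g1, of the epidermal class, came next at -3.53 (SE 0.606, adjusted p 0.0223). It had 626, 525 and 930 CPM in eESC_3d and 74.4, 103, 118 and 112 CPM in eESC_10d, with no overlap, and under 1 CPM in each gESC library. The call was lost in 7 of 13 fits without 1 library, namely eESC_3d A or C, any gESC_3d library, or gESC_10d A or B (highest adjusted p 0.138), while the difference stayed between -3.81 and -3.07. It was also lost with library size only (0.0552) and with the depth class term (0.0823). Contig c23773_g1_i02 had 553 ± 199 CPM at 3 days and 32.9 ± 14.9 CPM at 10 days, and c23773_g1_i01 had 140 ± 21.0 and 68.9 ± 4.47 CPM.

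In the other direction, c23830_g1 had 1.75, 2.34 and 2.18 CPM in eESC_3d and 6.24, 5.86, 6.17 and 6.94 CPM in eESC_10d. It rose 3.00-fold in the epidermis (log2 fold change 1.58, SE 0.170) and had 20.0 ± 1.45 and 17.9 ± 2.10 CPM in gESC at 3 and 10 days, where the fold change was -0.16. The difference was 1.74 (SE 0.233, adjusted p 0.00302). Stem c22494_g1 rose in eESC from 2.08 ± 0.629 to 8.95 ± 0.718 CPM and had 29.6 ± 10.6 and 41.2 ± 4.80 CPM in gESC, a difference of 1.62 (adjusted p 0.0474). In gESC_3d it had 22.6 and 24.4 CPM in the shallower A and B and 41.7 CPM in the deeper C. The deeper ISC_high had 61.1 ± 6.81 CPM (n = 4) and the shallower ISC_medium 30.7 ± 1.62 CPM (n = 3), and these also differ in gate. For c22494_g1, eESC_10d C had 10.0 CPM and the other 10-day libraries 8.53 to 8.66 CPM, and its interaction call was lost in 11 of 13 fits without 1 library (highest adjusted p 0.342), under both other scalings and with the depth class term (0.0743). The interaction calls of c25499_g1 and c23830_g1 were lost with the replicate letter as a block (edgeR adjusted p 0.0576 and 0.288). That fit held only the epithelial libraries, and the differences were -5.06 and 1.70. Without the block, both calls were kept in all 13 fits and with the depth class term. The epidermal changes themselves were not called with that term for c23830_g1 (1.68, adjusted p 0.0855), c22494_g1 (1.26, 0.161) and c23773_g1 (-1.16, 0.665). Without it their log2 fold changes were 1.58, 2.09 and -2.77. The number of interaction calls was 27 without eESC_10d C, 5 without eESC_3d A, 6 without eESC_3d C and 8 without eESC_10d D. It was 5 to 9 without any 1 of the 6 gESC libraries.

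Within stems, the contigs that received the counts also changed. In edgeR's test of differential contig usage, 799 of 5929 stems with at least 2 contigs (13.5%) were called, and 161 of them (20.2%) were also called for their sum, against 14.0% of the stems tested. The contig with the largest mean share differed between days in 1043 of the 5929 stems. Of these 1043, 177 were called, against 799 (13.5%) of all 5929. The median of the largest shift of a contig was 16.2 percentage points in called stems and 9.66 in all tested. Without eESC_3d A, 444 stems were called.

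Stem c26255_g1 had 1 of the 2 smallest p-values in that test (adjusted p 3.45e-12). Its contig c26255_g1_i02 took 52.8, 33.1 and 35.2% of the counts of the stem in eESC_3d and 0.571, 0.335, 0.250 and 0.105% in eESC_10d. The contigs c26255_g1_i01 and c26255_g1_i05 had larger shares, with 55.0 ± 2.90% and 37.6 ± 2.49% at 10 days against 34.1 ± 3.47% and 20.3 ± 6.70% at 3 days. The sum of the stem was 1110 ± 107 CPM at 3 days and 745 ± 83.9 CPM at 10 days and was not called (adjusted p 0.316). In the gastrodermis the share of c26255_g1_i02 was 81.6 and 77.9% in the shallower 3-day libraries, 27.9% in the deeper one and 36.3 ± 4.38% at 10 days, and it was 86.5 ± 2.65% in ISC_medium and 65.4 ± 5.09% in ISC_high.

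The other stem was c25588_g1, of the epidermal class (adjusted p 2.56e-12). Contig c25588_g1_i08 took 22.4, 11.5 and 23.3% of its counts at 3 days and at most 0.0243% at 10 days, and c25588_g1_i02 took 6.36 ± 0.797% and 0.113 ± 0.105%. Contig c25588_g1_i01 went the other way, with 0, 10.5 and 0.0453% at 3 days and 18.8 ± 2.24% at 10 days. The sum fell 1.42-fold, from 1430 ± 146 to 1010 ± 65.1 CPM (adjusted p 0.0196). That call was lost without eESC_3d A (adjusted p 0.123) or C (0.0512), without eESC_10d B (0.0547) or D (0.0618), and with the depth class term (-0.74, adjusted p 0.217). In the gastrodermis, c25588_g1_i08 took 27.6, 6.72 and 31.6% in gESC_3d A, B and C and 16.6 ± 3.71% in gESC_10d. These shares rest on 134 to 423 counts of the stem in each library. The interstitial gates had 19.9 ± 18.6% in ISC_high and 9.82 ± 8.55% in ISC_medium, with SDs near the means. The stem had 8.93 ± 0.959 CPM in gESC_3d and 19.6 ± 0.314 CPM in ISC_high, far below eESC. How counts are divided among near-identical contigs is uncertain, so a change of share is not by itself a change of isoform.

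**Figure D5:**
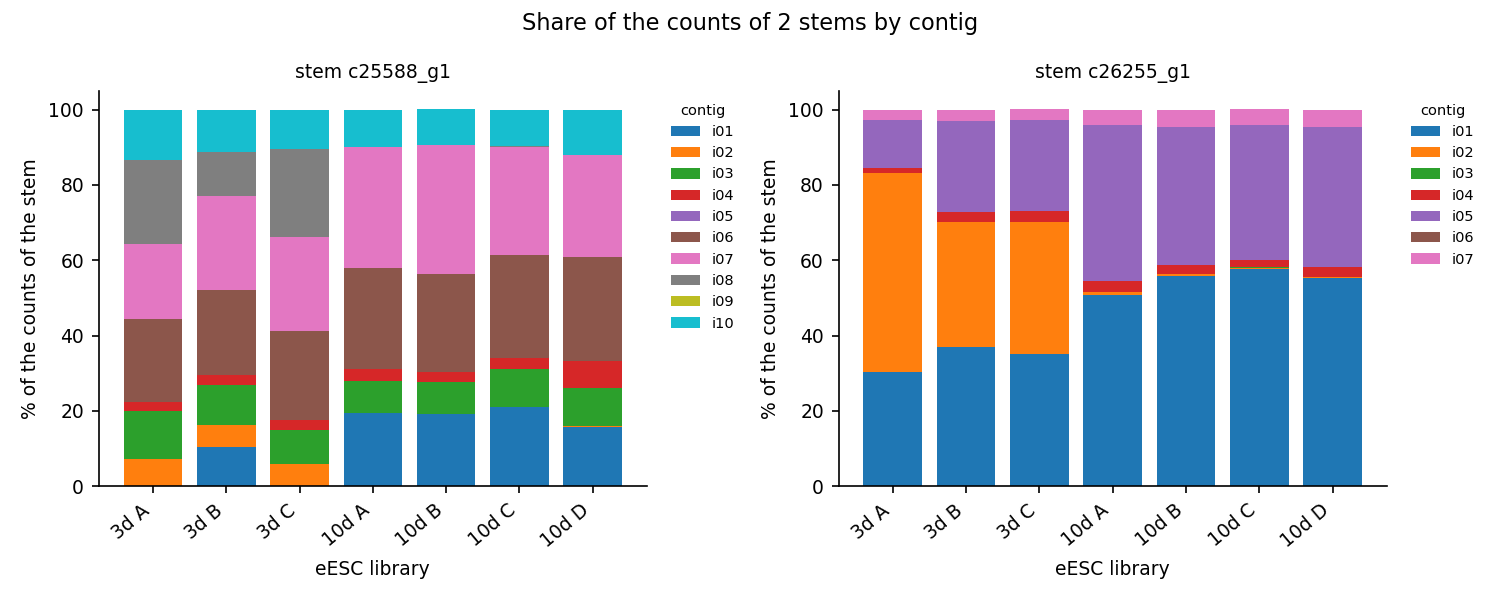
Stacked bars give the percentage of the counts of 2 stems that each contig received in the 7 eESC libraries. Contigs i08 and i02 of c25588_g1 and contig i02 of c26255_g1 are present in the 3-day libraries and nearly absent in all 10-day libraries.

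The 2 stems with the most counts in epidermal cells were not called by edgeR in the fit of all sorted libraries. Stem c26324_g1 had 26600, 11000 and 17100 CPM in eESC_3d and 62800, 30900, 76900 and 2970 CPM in eESC_10d. Replicate D was below all 3-day libraries and the other 10-day libraries were above them, so the groups overlapped (log2 fold change 1.25, SE 0.682, adjusted p 0.231). Its share of all counts ran from 0.356% in eESC_10d D to 8.33% in eESC_10d C. Stem c25578_g1 had 35200, 24600 and 27100 CPM at 3 days and 19400 to 24800 CPM at 10 days (log2 fold change -0.45, adjusted p 0.127). DESeq2 called it lower (-0.53, adjusted p 0.0458), and with the depth class term in edgeR the value was 0.48 (adjusted p 0.429).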

How the data were processed

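The authors deposited counts per transcript contig, whole numbers in 22 libraries; the submitters' processing notes name cutadapt 1.11, Salmon 0.7.2 and DESeq2, and the transcriptome and read length are not given in the sources used here. The last digit of each of the 14 largest values, all over 1000000, is 0. A second deposited table, a scaled part of these counts, was not used. The 61501 contigs were summed to 44306 stems; 8844 stems have several contigs, and of the called stems 15.3% share an assembly component with another stem, so near-identical copies may share counts.

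Counts of the 20 sorted libraries were fitted with 1 mean per group in edgeR 4.0.16 (R 4.3.3; glmQLFit and glmQLFTest, TMM scaling, filterByExpr at a minimum count of 10 and total of 15), which kept 18288 stems. The common biological coefficient of variation was 0.294. P-values were adjusted by Benjamini-Hochberg over all stems. CPM is the count per 1000000 counts of the TMM-scaled library size. Contig usage was tested with diffSpliceDGE, and class shares with exact permutation tests in scipy 1.17.1. Nothing says that replicates are separate cultures, so p-values measure the spread between these libraries. The edgeR test of stems and the contig usage test were run on simulated data first, and the permutation tests were not. The stem test recovered 56% of 2-fold and 100% of 4-fold changes, and 5.45% of its calls were false. The usage test recovered 96% of 4-fold changes, and 7.25% of its calls were false. In the stem simulation, the changed stems were 100 at each fold, all of at least 5 CPM. Both simulations used 1 fixed spread, below the common value of 0.294. No effect of depth class and no library apart from its group was simulated, so these rates hold for the simulated data only.

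Named stems were the 2 highest and 2 lowest log2 fold changes among called stems of at least 10 CPM with no overlap between groups, the same for the interaction over the 13 epithelial libraries without the rule on overlap, the 2 smallest usage p-values, and the 2 stems with the most counts. The comparison and these rules were chosen with earlier results of these data known. Floors of 3 counts and intervals cover counting error only. Alternatives were another scaling, filter, tool, set of libraries, thinning, a depth class term, a replicate block, unsummed contigs and leaving out each replicate.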

Additional observations from a re-analysis of the deposited data

Results flagged for a closer look

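In eESC_10d, replicate C lay apart from the other 3 libraries by more than the 95% limit of Dixon's test for 4 samples in the share of counts of the gastrodermal class (2.56%), in that of the unsorted-high stems (0.610%) and in the level of c22494_g1 (10.0 CPM). Of 17 values tested this way, 3 were past the limit, all in C, and chance puts about 1 in 20 groups past it. Whether other cells in this library account for the value of c22494_g1 was not tested. The mean of that stem was 41.2 ± 4.80 CPM in gESC_10d (n = 3), 61.1 ± 6.81 CPM in ISC_high (n = 4) and 30.7 ± 1.62 CPM in ISC_medium (n = 3).

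The change with starvation differed between the epithelial layers in the interaction test for 4 named stems. The difference, eESC minus gESC, was -5.10 for c25499_g1 and -3.53 for c23773_g1, on the log2 scale. For c23830_g1 it was 1.74 and for c22494_g1 1.62. None of the 4 interaction calls was kept with the replicate letter as a block in edgeR (adjusted p 0.0576 to 0.486). Without the block, the interaction calls of c25499_g1 and c23830_g1 were kept in all 13 fits without 1 library and with the depth class term. That of c23773_g1 was lost in 7 of the 13 and that of c22494_g1 in 11, and both were lost with the depth class term (adjusted p 0.0823 and 0.0743). The interaction has the groups of both layers in it, and gESC_3d holds libraries of both depth classes.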

How the results depend on the processing

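The 2246 eESC calls numbered 2414 with median-of-ratios factors, 2412 with library size only, 3198 with DESeq2 and 2397 after thinning. They were 1369 with no filter, 3833 with only the 7 eESC libraries, 4 with a depth class term (2327 at an unadjusted p under 0.05) and 588 without eESC_3d A and eESC_10d C, an alternative chosen after seeing the data. Leaving out 1 library gave 661 to 2113.

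The 12 gESC calls were 4 with library size only, 230 at a mean of at least 5 CPM, 542 with DESeq2, 1 with the depth class term and 1 with gESC_3d C as the only 3-day library, also chosen after seeing the data. In that fit the lone library is assumed to vary like the other groups. Leaving out 1 library gave 0 to 1013 calls in edgeR, with 1517 to 3684 at an unadjusted p under 0.05.

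The 15 interaction calls were 6 with library size only, 9 with no filter, 7 with only the epithelial libraries, 94 with DESeq2, 9 with the depth class term and 25 without both libraries named above. Leaving out 1 library gave 5 to 27. The 799 usage calls were 410 for contigs of at least 5 CPM, 381 without both libraries and 444 to 685 without 1.

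With the replicate letter as a replicate block, only the groups compared fitted, 1355 eESC stems were called (1098 shared), 1 gESC stem, and 0 interactions in edgeR (1147 at an unadjusted p under 0.05; 94 by DESeq2 without the block). Deviations of same-letter libraries correlated at -0.13, 0.08 and 0.12 for A, B and C, and those of different letters at -0.21 to 0.14. Not every library correlated best with its own letter. So few values cannot show whether the letters mark a shared culture or day.

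The difference in share of the epidermal class, -1.35 percentage points, became 0.132 as a difference of mean log2 CPM, and ranged from -1.96 to -0.653 without 1 library. That of the gastrodermal class, 0.463, was -0.0189 without both libraries and 0.00585 to 0.636 without 1. The interstitial class held 2696 stems at 2-fold and 200 at 8-fold. The fold change of c25578_g1 was 0.48 with the depth class term. Of 200 alternatives for the 10 named results, 159 kept direction and stayed called or not called as in the main fit. These 159 include alternatives in which c26324_g1 and c25578_g1, not called in the main fit, stayed without a call. Of the rest, 38 lost the call, 1 reversed and 2 gained a call. Those 2 were c25578_g1 with DESeq2 (-0.53, adjusted p 0.0458) and c26324_g1 with the replicate block in edgeR (1.65, adjusted p 0.0232). The cause of these changes was not tested. Day and depth class cannot be told apart, 1 group has 3 libraries, and stems near the floor have fold changes that depend on depth.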
